A study of Mus musculus with 16 samples.

Results

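The genes for the subunits of the oxidative phosphorylation system were examined in mouse pulmonary ECs. They were taken by symbol from the protein-coding genes of the deposited tables: Nduf followed by a, b, c, s or v and a number, Sdha to Sdhd, every symbol that starts with Uqcr, Cox4 to Cox8 or Atp5, and the mt-Nd, mt-Co, mt-Cytb and mt-Atp genes. This gave 98 of 54532 genes, of which 85 lie on nuclear chromosomes and 13 on the mitochondrial genome. The symbols alone decided membership, although results of these data were known when the family was chosen. A pair of entries carries the symbol Atp5o, so the 85 nuclear genes have 84 symbols. Ndufab1, Cyc1, Cycs and Atpif1, which work with these subunits, do not match the symbols and are given with the partner genes.

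Oxidative phosphorylation takes place at the inner mitochondrial membrane. Complexes I and II pass electrons from NADH and succinate to ubiquinone, complex III passes them to cytochrome c and complex IV to oxygen, while complexes I, III and IV pump protons that complex V uses to make ATP. Complex II is built from nuclear genes alone, and the other complexes combine nuclear subunits with a few that are transcribed from the mitochondrial genome as long transcripts and translated by the mitochondrial ribosome. ECs are known to draw much of their ATP from glycolysis, and their mitochondria are also studied as a source of signals.

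RNA was sequenced in bulk from pulmonary ECs of 2 experiments, each library labelled as a separate sample, 24 h after an intratracheal injection. In the first, male WT C57/BL6J mice aged 8 weeks received saline (n = 4) or 10 mg/kg LPS (n = 6), the bacterial lipopolysaccharide used to model acute lung injury. In the second, Fgfr1 loxP/loxP mice (n = 3) and Fgfr1 iΔEC/iΔEC littermates (n = 3) had all been given tamoxifen and then 2 mg/kg LPS, so this experiment held no group without LPS or without tamoxifen. Fgfr1 iΔEC/iΔEC mice carry the floxed Fgfr1 alleles together with VE-cadherin-CreERT2, a Cre that tamoxifen switches on in ECs throughout the body, and the loxP/loxP mice are named without this transgene. The second set of mice is described as adult, and their exact age and sex are not given in the sources used here. Cells were freed from the lung by digestion, those binding CD45 beads were removed and those binding CD31 beads were kept.

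Expression was deposited as FPKM, the fragments on a gene set against its length and a library size. Whole read numbers could be recovered from it, and they added up to 13478726 to 18807007 reads on genes per saline library, 17840221 to 19043015 per LPS library and 15969575 to 17002788 per library of the second experiment. The nuclear subunit genes took 0.501% to 0.554% of these reads in the saline libraries and 0.678% to 1.10% in the LPS libraries. Pecam1, which encodes CD31, was read at a median of 373 FPKM in saline and 361 FPKM in LPS, and Cdh5, which encodes VE-cadherin, at 688 and 383 FPKM. Ptprc, which encodes CD45, was still read at a median of 6.68 FPKM in saline and 30.5 FPKM in LPS.

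Some libraries stood apart from others of their group. The 13 mitochondrial transcripts summed to 19126 and 17499 FPKM in saline 1 and saline 3, against 7827 and 7864 FPKM in saline 2 and saline 4. The same pair of libraries was high for Gm23935, a short RNA gene. It had 40985 and 54701 FPKM in saline 1 and 3 against 2913 and 4776 FPKM in saline 2 and 4. Sums of some cell type markers, listed below, split alike. Epithelial sums were 2956 and 2226 against 1387 and 1149 FPKM, and macrophage sums 1201 and 735 against 472 and 374 FPKM. Neutrophil sums were 1387 and 306 against 70.3 and 76.4 FPKM. Endothelial sums were likewise 5429 and 4066 against 3276 and 3391 FPKM. Nuclear subunit genes summed to 3680 and 3269 against 2698 and 2815 FPKM. The leukocyte, mural and fibroblast sums were instead lowest in saline 3, at 76.5, 37.9 and 36.1 FPKM. In the second experiment loxP/loxP 2 had the highest mitochondrial sum, 36922 FPKM, against 21389 and 14492 FPKM in loxP/loxP 1 and 3.

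The first comparison asked which subunit genes differed between LPS and saline. Nuclear subunit transcripts were higher in LPS as a body. Their FPKM summed to 2698, 2815, 3269 and 3680 in the saline libraries, and in LPS to between 4186 and 8324 with a median of 5664. The groups did not overlap, and the lowest LPS library lay above the highest saline library. In bulk RNA, a change in the cells present and a change in the RNA of each cell, such as fewer cells of a type and less RNA per cell, cannot be told apart. Of the 85 nuclear genes, 81 passed the limit of a mean of 0.5 FPKM and were tested with limma on log2(FPKM + 1), with p adjusted over all 14893 genes. Of these 81, 62 rose and 3 fell at an adjusted p at or under 0.05, and 16 passed in neither direction. Among all genes tested 29.5% rose and 23.7% fell (53.2% in all), whereas 76.5% of the tested nuclear subunit genes rose. The groups did not overlap for 49 of the 81, against 39.4% of all genes, with LPS higher for 48 (22.7% of all genes) and lower for 1 (16.7%). A rise of at least 2-fold that passed was found for 22 of the 81, against 11.9% of all genes, and such a fall for 1, Cox4i2, against 6.79%. The log2 fold change was above 0 for 74 of the 81, against 50.7% of all genes. The median log2 fold change of the 81 was 0.79, against 0.01 over every gene tested.

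**Figure D1:**
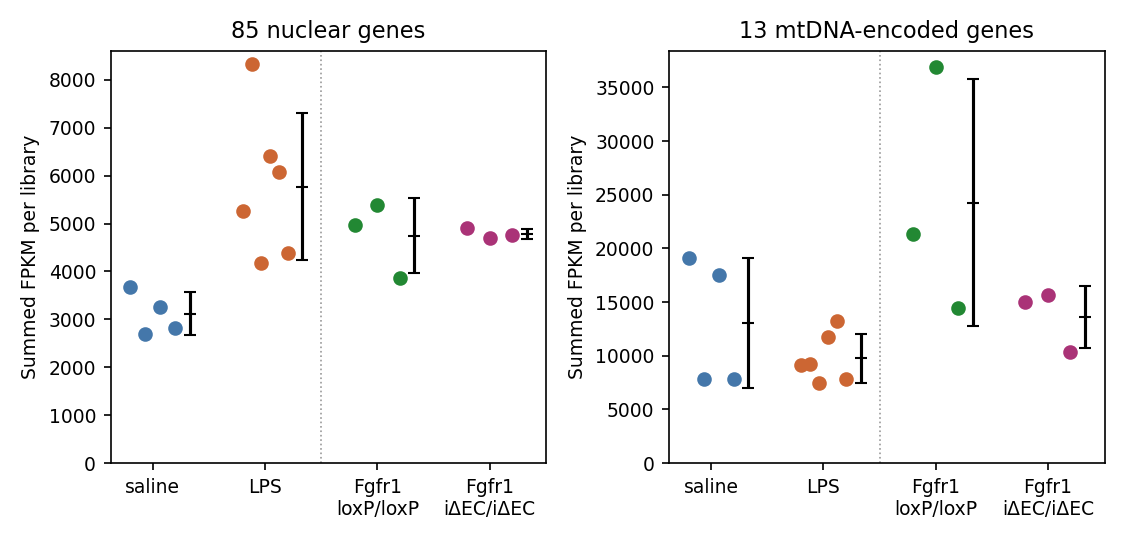
Summed FPKM of the 85 nuclear (left) and 13 mitochondrial-encoded (right) subunit genes in each library, with the mean and SD beside each group and a dotted line between the separately normalised experiments. The LPS libraries lie above all saline libraries on the left (4186 to 8324 against 2698 to 3680 FPKM), whereas the groups overlap on the right.

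The size of the rise depended on how libraries were scaled. With scaling on total reads or on reads of nuclear genes the middle gene of the whole table stood at -0.15 on the log2 scale, and with scaling on the 10 endothelial marker genes at 0.57. Relative to this value, the median of the nuclear subunit genes was 0.78 higher with the scaling used here, 0.73 higher on total or nuclear reads and 0.93 higher on the endothelial list. The smallest excess came from quantile normalization, at 0.41, where 42 of the 81 rose, against 24% of all genes. Gene length also mattered, since the 81 genes have a median length of 1569 bases, against 3580 for all genes tested. With the trend of values with length removed, their median was 0.50 and its excess 0.57. In that setting 50 of the 81 rose and 4 fell, against 25.3% and 29.7% of all genes. LPS 2 had the highest FPKM of its group in 73 of the 81 genes, and without it 62 rose, 4 fell and the median was 0.69. Of all genes 28.9% rose and 22.5% fell without LPS 2.

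**Figure D2:**
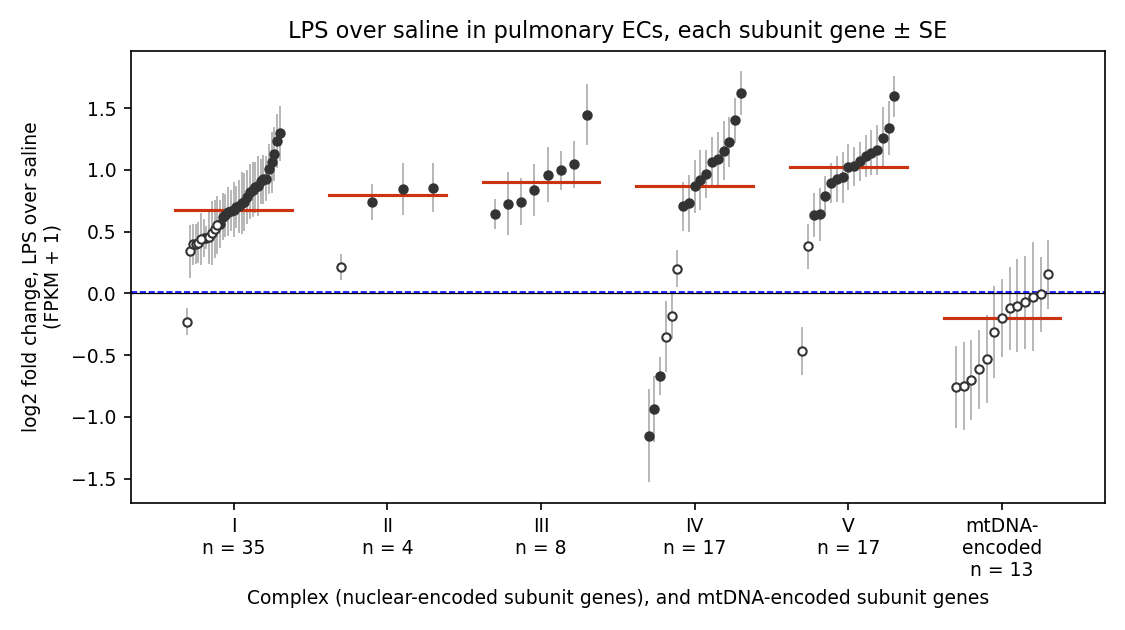
Log2 fold change (FPKM + 1) of LPS over saline for each tested subunit gene, with its standard error. Filled points passed an adjusted p of 0.05, red bars mark medians (0.68, 0.79, 0.90, 0.87 and 1.02 for complexes I to V and -0.20 for the mitochondrial-encoded genes), and the dashed line is the median of all genes, 0.01.

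Every complex took part in the rise. Of all genes tested 29.5% rose and 23.7% fell. In complex I, 25 of 35 nuclear genes rose and none fell, with a median log2 fold change of 0.68. All 8 tested genes of complex III rose (median 0.90), as did 15 of 17 of complex V (median 1.02) and 3 of 4 of complex II (median 0.79). Complex IV was the only one to hold genes that fell, with 11 of 17 tested genes higher and 3 lower.

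Within complex I the rise was found in both the catalytic core and the accessory subunits around it. Of the 7 nuclear core genes, which carry the flavin and the iron-sulfur clusters, 4 rose (median log2 fold change 0.45). Of the 28 accessory genes 21 rose (median 0.70), where 29.5% of all genes rose. Ndufb9, an accessory subunit of the membrane arm (chr15:58933756-58939488 in GRCm38, as all positions here), had 16.4, 11.2, 13.8 and 14.2 FPKM in saline libraries 1 to 4 and 25.2 to 61.1 FPKM in LPS, with a median of 34.0. Every LPS library lay above every saline library, and its log2 fold change, 1.30 (SE 0.22, adjusted p = 0.000652), was the largest of the complex. Ndufa11, another membrane arm subunit (chr17:56717767-56722141), had 19.0, 13.1, 19.6 and 14.4 FPKM in saline and 27.8 to 66.3 FPKM in LPS with a median of 36.9. Here too the groups were apart, with a log2 fold change of 1.23 (SE 0.22, adjusted p = 0.000774). Among core subunits Ndufs1, the largest of them, rose by little and evenly, from 5.06 to 5.92 FPKM in saline to 6.96 to 9.03 FPKM in LPS, at a log2 fold change of 0.45 (SE 0.10, adjusted p = 0.0024).

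Ndufb2 was the exception of complex I. It was the lowest of all tested subunit genes, at 1.80, 1.11, 1.30 and 1.26 FPKM in saline and 0.927 to 1.08 FPKM in LPS, and every LPS library lay under every saline library. Its log2 fold change of -0.23 (SE 0.11) had an adjusted p of 0.0989, which became 0.0213 on scaling by total reads. Its annotated span overlaps Braf and it has a near-identical copy elsewhere, so its reads are uncertain.

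Complex II showed a difference in size between its catalytic flavoprotein and the other subunits. Sdha had 41.4, 46.0, 45.1 and 46.3 FPKM in saline and 47.1 to 61.3 FPKM in LPS. Its groups were apart, yet by little, and with a log2 fold change of 0.21 (SE 0.11, adjusted p = 0.111) it did not pass. With quantile normalization it stood at -0.26. Sdhb, the iron-sulfur subunit (chr4:140961203-140979193), had 42.6, 26.8, 31.8 and 28.6 FPKM in saline and a median of 58.3 FPKM in LPS, between 43.3 and 83.4. It rose by 0.85 on the log2 scale (SE 0.21, adjusted p = 0.00589) with no overlap. The membrane anchors rose alike, Sdhc by 0.74 (SE 0.15, adjusted p = 0.00171) without overlap and Sdhd by 0.86 (SE 0.20, adjusted p = 0.0039) with an overlap of the groups.

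In complex III the largest rise was that of Uqcrq, a small subunit next to cytochrome b (chr11:53427922-53430831). It had 30.0, 18.8, 24.4 and 19.8 FPKM in saline and 42.2 to 107 FPKM in LPS, with a median of 65.0. No LPS library came down to the saline range, and the log2 fold change was 1.45 (SE 0.24, adjusted p = 0.00059). Uqcrfs1, the Rieske iron-sulfur protein (chr13:30540308-30545362), had 52.0, 32.0, 37.6 and 30.5 FPKM in saline and 59.7 to 97.8 FPKM in LPS with a median of 82.7. It rose by 1.05 on the log2 scale (SE 0.19, adjusted p = 0.000978) without overlap. The large structural core proteins Uqcrc1 and Uqcrc2 rose by 1.00 (SE 0.16) and 0.64 (SE 0.12).

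Complex IV held the largest rise of all nuclear subunit genes. Cox5a, a subunit that faces the matrix (chr9:57521274-57532426), had 14.6, 11.9, 10.9 and 12.7 FPKM in saline and 26.8 to 52.7 FPKM in LPS, with a median of 44.0. Its lowest LPS library was well above the highest saline library, with a log2 fold change of 1.62 (SE 0.18, adjusted p = 3.73e-05). Cox7b, a small membrane subunit (chrX:106015700-106022450), had 31.0, 24.1, 29.2 and 25.1 FPKM in saline and 55.7 to 106 FPKM in LPS with a median of 74.4. It rose by 1.40 (SE 0.18, adjusted p = 0.000107), again without overlap. The most abundant nuclear subunit transcript, Cox6a1, rose from a mean of 228 ± 39.9 FPKM (SD, n = 4) to 444 ± 142 FPKM (SD, n = 6), and Cox8a from 178 ± 33.9 to 375 ± 82.2 FPKM.

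The ATP synthase of complex V showed rises in both its catalytic head and its membrane part. Atp5mpl, a small proteolipid of the membrane part (chr12:111961375-111966977), had 21.2, 15.9, 16.2 and 16.4 FPKM in saline and 43.1 to 77.2 FPKM in LPS, with a median of 54.8. The groups were far apart, and the log2 fold change was 1.60 (SE 0.17, adjusted p = 2.68e-05). Atp5g1 encodes the c subunit of the proton-driven ring, as Atp5g2 and Atp5g3 do. It was the least abundant of these genes, with 3.46, 3.97, 3.77 and 4.64 FPKM in saline and 6.25 to 15.8 FPKM in LPS, and it rose by 1.34 (SE 0.22, adjusted p = 0.000504) without overlap. Atp5g2 rose by 0.63 (SE 0.18) and Atp5g3 by 0.92 (SE 0.19). Atp5a1 and Atp5b, the alpha and beta subunits of the head, rose by 0.90 (SE 0.16) and 1.03 (SE 0.16), both without overlap. Atp5s, an associated factor that matched by its symbol, was the only tested gene of the complex with a negative value, at -0.46 (SE 0.19, adjusted p = 0.0638), and stood at 0.054 with scaling on the endothelial list. The second entry named Atp5o had no read in any library of either experiment.

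Several subunits of complex IV exist as a broadly used isoform and a tissue-restricted one. Of the 7 restricted genes compared here (Cox4i2, Cox6a2, Cox6b2, Cox7a1, Cox7b2, Cox8b and Ndufa4l2), 5 had enough expression to be tested, none rose and 3 fell, where 29.5% of all genes rose and 23.7% fell. Cox4i2 (chr2:152754173-152765037) is an isoform of the regulatory subunit 4 known from lung and from pericytes. It had 31.7, 28.8, 13.5 and 33.01 FPKM in saline and 4.21 to 20.02 FPKM in LPS, with a median of 12.6. Saline 3 fell within the LPS range, and the log2 fold change was -1.15 (SE 0.38, adjusted p = 0.0232). This call did not hold without saline 1, 2 or 4, where the adjusted p was 0.0562, 0.0582 and 0.0672, nor without a filter on low values, where it was 0.0617. Its common partner Cox4i1 moved the other way, from 124, 83.0, 98.7 and 87.1 FPKM in saline to between 148 and 312 FPKM in LPS (log2 fold change 1.09, SE 0.22, adjusted p = 0.00189).

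Ndufa4l2, a paralog of Ndufa4 that is known to be induced by hypoxia and is also a pericyte transcript, had 11.9, 9.33, 6.09 and 12.5 FPKM in saline and 2.58 to 7.91 FPKM in LPS with a median of 4.60. Saline 3 was again the low library of its group. It fell by 0.93 on the log2 scale (SE 0.27, adjusted p = 0.0129), while Ndufa4, now counted as a subunit of complex IV, rose by 0.73 (SE 0.23, adjusted p = 0.0199). Ndufa4l2 overlaps Shmt2 on the chromosome, and the strand of the reads is not stated. With scaling on the endothelial list the falls of Cox4i2, Ndufa4l2 and Cox6b2 no longer passed, at adjusted p of 0.202, 0.284 and 0.637. Cox6b2, the testis isoform of subunit 6b, went from 4.30, 3.18, 2.63 and 3.99 FPKM to between 1.42 and 2.67 FPKM with a median of 1.67. The lowest saline library was overlapped by 1 LPS library, and the gene fell by 0.67 (SE 0.16, adjusted p = 0.00435), whereas Cox6b1 rose by 1.16 (SE 0.24, adjusted p = 0.00216).

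**Figure D3:**
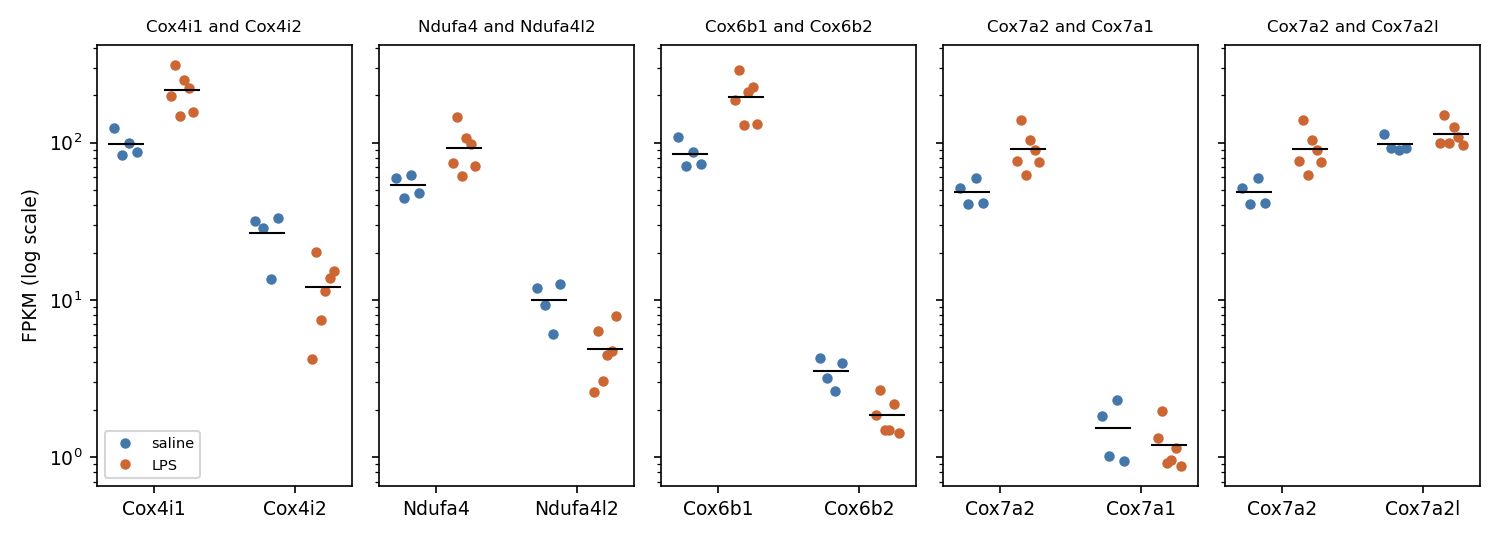
FPKM (log axis) of 5 pairs of complex IV genes in each saline (blue) and LPS (orange) library, with the group mean as a line. The first gene of each pair is higher in LPS, whereas Cox4i2, Ndufa4l2 and Cox6b2 are lower and Cox7a1 and Cox7a2l lie near the saline range.

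The muscle isoforms were low. Cox6a2 and Cox7a1, known from heart and skeletal muscle, were among the 3 lowest tested genes, with saline means of 2.13 and 1.53 FPKM. Cox6a2 had a log2 fold change of -0.35 (SE 0.29, adjusted p = 0.326) and Cox7a1 one of -0.18 (SE 0.19, adjusted p = 0.426). Cox8b had 3 to 10 reads in each saline library and 0 to 2 in each LPS library, too few for a test of its level. No read fell on Cox7b2, and Cox8c, a testis form, was read in 1 saline library only.

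Pairs were also compared by the log2 ratio of both genes within a library (FPKM + 0.1). For Cox8b over Cox8a no difference is given, since all LPS libraries were under the floor of 3 reads. The ratios of Cox4i2, Ndufa4l2, Cox6b2, Cox7a1, Cox6a2 and Cox7a2l to their partners were all lower in LPS, with exact permutation p from 0.0167 to 0.0190 (two-sided, adjusted over 7 pairs with Cox8b among them). The smallest p these group sizes can give is 0.00952 before adjustment. The Cox4i2 over Cox4i1 ratio fell by 2.33, and Cox4i2 made up 12.0% to 27.5% of the FPKM of the pair in saline and 2.09% to 8.81% in LPS, with no overlap. The Ndufa4l2 over Ndufa4 ratio fell by 1.81 with overlapping groups, those of Cox6b2 and Cox7a1 fell by 2.07 and 1.16 without overlap, and that of Cox6a2 by 1.41 with overlap. Cox7a2l is no tissue isoform but a relative of Cox7a2 that helps to join complexes III and IV into supercomplexes. Its log2 fold change of 0.20 (SE 0.15, adjusted p = 0.282) did not pass, and the direction depended on the scaling. It was -0.42 (adjusted p = 0.00255) with quantile normalization and 0.92 (adjusted p = 0.00301) with scaling on the endothelial list. Cox7a2 rose by 0.87 (SE 0.22, adjusted p = 0.00596), and the ratio of Cox7a2l to Cox7a2 within a library fell by 0.68 with overlap.

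Transcripts of other cells were read beside these results. Of 8 mural cell markers (Pdgfrb, Cspg4, Rgs5, Acta2, Tagln, Myh11, Notch3 and Higd1b) 3 fell in LPS, namely Higd1b, Notch3 and Pdgfrb, against 23.7% of all genes tested, with a median log2 fold change over the list of -0.44. Higd1b, a pericyte gene, had 14.9, 16.3, 11.3 and 17.3 FPKM in saline and 1.80 to 13.5 FPKM in LPS. Saline 3 and LPS 1 were the lowest of their groups, as for Cox4i2. This order was not particular to mural genes. LPS 1 was also lowest of its group for the endothelial, epithelial and fibroblast sums, at 1434, 291 and 19.3 FPKM. Saline 3 was also lowest for the fibroblast and leukocyte sums, at 36.1 and 76.5 FPKM. The whole mural list summed to 37.9 to 136 FPKM in saline and 34.9 to 72.4 FPKM in LPS, so that the groups overlapped. None of its genes was under 3 reads in all saline libraries. Acta2, the most abundant, went the other way and was the only 1 of the 8 above 0, without passing. With 1 library left out its log2 fold change ranged from 0.41 to 1.54. The part of mural transcripts in the falls of Cox4i2 and Ndufa4l2 was not tested.

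Leukocyte transcripts were also higher in LPS than in saline. The counts below are read against the 29.5% of all genes that rose. All 6 leukocyte markers rose (median log2 fold change 2.83), and they summed to 76.5 to 227 FPKM in saline and 641 to 1554 FPKM in LPS, with Coro1a the most abundant (3.25, SE 0.33, adjusted p = 2.33e-05) and Laptm5 next in fold change (3.15, SE 0.32). Of 8 macrophage markers 7 rose (median 4.21), among them Msr1, which reached the limit for testing only through the LPS libraries. The list was led by Cd14 and Csf1r at 5.76 (SE 0.86) and 4.81 (SE 0.31), with sums of 374 to 1201 and 2067 to 4744 FPKM and Lyz2 the most abundant. Of 8 neutrophil markers 6 rose (median 2.31), led by S100a8 and S100a9 at 3.91 (SE 0.77) and 3.73 (SE 0.80), with sums of 70.3 to 1387 and 1279 to 6609 FPKM and S100a9 the most abundant. All genes of these lists had 3 or more reads in at least 1 saline library. Within LPS the highest neutrophil sum and the highest sum of nuclear subunit genes were both in LPS 2, while the highest leukocyte and macrophage sums were in LPS 1, whose nuclear subunit sum was 5255 FPKM. The part of leukocyte RNA in the subunit genes was not tested.

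Markers of the other cell types are read against the 29.5% of all genes that rose and the 23.7% that fell. Of 10 endothelial markers none rose and 6 fell (median -0.71), with Kdr at -1.63 (SE 0.28) and Tek at -1.20 (SE 0.22), sums of 3276 to 5429 FPKM in saline and 1434 to 3382 FPKM in LPS, and Cldn5 the most abundant. Of 9 epithelial markers tested 3 fell and 2 were above 0, with a median of -0.52. The largest of the 3 falls were those of Sftpc, the surfactant protein C gene, at -2.30 (SE 0.43) and Scgb1a1 at -1.57 (SE 0.61). Epithelial sums were 1149 to 2956 FPKM in saline and 291 to 1015 FPKM in LPS, with Sftpc the most abundant. Of 6 fibroblast markers 4 fell, led by Tcf21 at -0.91 (SE 0.30) and Col3a1 at -0.80 (SE 0.24), and of 3 erythroid markers 2 rose, Hbb-bs by 1.66 (SE 0.37) and Hba-a1 by 1.40 (SE 0.37). Fibroblast sums were 36.1 to 62.4 and 19.3 to 45.8 FPKM with Col3a1 the most abundant, and erythroid sums 5.81 to 24.5 and 20.1 to 68.6 FPKM with Hba-a1 the most abundant. Muscle genes were sparse. Of 5 skeletal markers Ckm and Myh4 were under 3 reads in all saline libraries and only Mylpf was tested, falling by 0.68 (SE 0.15), with sums of 3.17 to 4.71 and 1.52 to 2.61 FPKM, and none of the 3 tested cardiac markers passed (sums 3.93 to 24.5 and 2.60 to 8.32 FPKM, Actc1 the most abundant).

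Genes that serve the same organelle were examined through lists by role. Of 77 tested protein genes of the mitochondrial ribosome, which makes the mitochondrial-encoded subunits, 56 rose and none fell (median log2 fold change 0.66), led by Mrpl52 at 1.95 (SE 0.24) and Mrpl54 at 1.79 (SE 0.20). Of 17 genes of pyruvate dehydrogenase and the TCA cycle, which feed the chain with NADH and succinate, 12 rose and none fell, with Mdh2 at 1.24 (SE 0.18) and Idh3a at 0.92 (SE 0.15). Among 20 carriers, pores and shape genes 13 rose and none fell, led by Slc25a5, an ADP/ATP carrier, at 1.91 (SE 0.21, adjusted p = 4.02e-05) and Timm23, a channel of protein import, at 1.25 (SE 0.16). These shares may be set beside the 29.5% of all genes that rose.

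Partner genes gave a mixed picture. Of 20 tested partners 8 rose and 2 fell, where 29.5% of all genes rose, with Cycs, cytochrome c, at 1.53 (SE 0.19, adjusted p = 8.37e-05) and Usmg5, a small subunit of ATP synthase named outside the pattern, at 1.37 (SE 0.23). Cyc1, cytochrome c1 of complex III, rose by 0.85 (SE 0.16) and Atpif1, the inhibitor of ATP synthase, by 0.74 (SE 0.19), whereas Ndufab1 stood at 0.22 (SE 0.12, adjusted p = 0.151). Of 48 assembly factors, which are needed to build the complexes and are not part of them, 18 rose and 1 fell (median 0.26), against the same 29.5% of all genes, led by Uqcc2 at 1.15 (SE 0.25) and Sdhaf1 at 0.93 (SE 0.19).

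Few regulators of mitochondrial gene expression passed the test. Of 21 tested 2 rose and 2 fell, where 29.5% of all genes rose and 23.7% fell, with a median log2 fold change of 0.02. Esrra, a nuclear receptor that acts on genes of energy metabolism, rose from a saline median of 13.1 FPKM to 20.5 to 35.2 FPKM in LPS (1.18, SE 0.15, adjusted p = 0.000115). Slirp, an RNA-binding protein of mitochondria, rose by 0.55 (SE 0.15) at a low level, with means of 0.406 FPKM in saline and 1.07 FPKM in LPS, and so reached the limit of 0.5 FPKM only through the LPS libraries, while Mterf3 and Polg2 fell by 0.29 (SE 0.10) and 0.38 (SE 0.14) and stood at 0.35 and 0.11 on the endothelial list. Nrf1 and Tfam, the nuclear respiratory factor and the mitochondrial transcription factor, had log2 fold changes of 0.02 (SE 0.09, adjusted p = 0.84) and -0.02 (SE 0.10, adjusted p = 0.866). Ppargc1a, a coactivator of these factors, was too low to be tested, with a saline median of 0.494 FPKM and an LPS median of 0.121 FPKM.

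The bases before the start sites of the nuclear subunit genes were searched for motifs known from respiratory genes. RefSeq promoters (GRCm38.p6) were found for 66 of the 84 nuclear symbols, and the 250 bases upstream were searched on both strands. The motif of NRF1, spelled GCGCA and GCGC with any 1 base between them, was present before 13 of the 66 (19.7%), against 4.23% of 27025 symbols with a promoter, and among them were 11 of the 49 with a promoter that rose in LPS. The ETS motif CCGGAAG, as bound by GABPA, was present before 12 (18.2%), against 7.83% of all, and among them were 10 of the 49. In all, 22 of 66 had either motif (33.3%, against 11.3%), and Atp5h, Cox6a1 and Sdhd had both. A match says only that these letters are present, and the part of these motifs in the rise was not tested. The windows shown are from the 4 genes with the largest log2 fold changes among those with the NRF1 motif, 1.23 for Ndufa11, 1.16 for Atp5k, 0.92 for Cox6a1 and 0.86 for Sdhd, each read 5′ to 3′ on the strand of its gene with the motif in capitals.
Ndufa11 (chr17:56717662-56717751, plus strand): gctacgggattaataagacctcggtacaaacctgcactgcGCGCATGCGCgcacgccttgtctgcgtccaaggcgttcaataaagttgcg
Atp5k (chr5:108434400-108434489, minus strand): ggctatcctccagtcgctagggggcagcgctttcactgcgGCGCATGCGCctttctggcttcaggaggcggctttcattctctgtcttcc
Cox6a1 (chr5:115349071-115349160, minus strand): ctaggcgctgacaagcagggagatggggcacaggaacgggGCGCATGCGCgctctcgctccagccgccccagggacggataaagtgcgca
Sdhd (chr9:50603879-50603968, minus strand): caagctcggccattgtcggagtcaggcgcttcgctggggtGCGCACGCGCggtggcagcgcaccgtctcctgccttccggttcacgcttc
The motif ends 51, 41, 153 and 70 bases before the annotated starts of these genes, and Cox6a1 holds a second match that ends 108 bases before its start. It was also found before Sdha, the subunit of complex II that did not pass in LPS.

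The mitochondrial-encoded genes gave no call in the comparison with LPS. All 13 were tested, and none passed in either direction in LPS over saline with limma, with 1 at an unadjusted p under 0.05 (59.6% of all genes) and a median log2 fold change of -0.20. The median and the calls depended on single libraries and on the scaling. The median was 0.043 without saline 1, -0.0013 without saline 3, -0.44 without saline 2, -0.33 without saline 4, -0.62 with quantile normalization and 0.50 with scaling on the endothelial list, where the median of all genes was 0.57. It was -0.39 and -0.40 with scaling on total and on nuclear reads and -0.42 with the length trend removed. Of the 13 genes, 4 fell under each of these last 3 settings, where 31.2%, 31.6% and 29.7% of all genes fell. With quantile normalization 5 fell, against 28.8% of all genes. Without saline 2 and without saline 4, 1 fell, against 19.5% of all genes each. With scaling on the endothelial list 1 rose, against 48.5% of all genes. Of the LPS libraries, leaving out LPS 1 or LPS 3 gave -0.085 and -0.075 and leaving out LPS 4 gave -0.31. With limma-voom on the recovered reads 2 fell, mt-Cytb and mt-Nd2, against 24.4% of all genes. The summed FPKM of the 13 genes overlapped between the groups, at 7827 to 19126 in saline and 7445 to 13201 in LPS.

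The most abundant subunit transcript was mt-Co1, the catalytic subunit of complex IV, which had 6860, 2798, 5417 and 2701 FPKM in saline and 3232 to 5392 FPKM in LPS, with a median of 3631. The LPS libraries lay between the high and low pairs of saline libraries, and the log2 fold change was -0.07 (SE 0.37, adjusted p = 0.881). mt-Cytb, cytochrome b of complex III, had 3853, 1892, 4045 and 1912 FPKM in saline and a median of 1622 FPKM in LPS, between 1323 and 2292. Saline 2 and 4 fell within the LPS range, and the log2 fold change was -0.70 (SE 0.32, adjusted p = 0.0873). mt-Nd1 of complex I came next in level, at -0.10 (SE 0.38, adjusted p = 0.837).

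Of the complex I genes mt-Nd2 had the lowest log2 fold change. It had 2069, 834, 2166 and 871 FPKM in saline and 597 to 1041 FPKM in LPS, with a log2 fold change of -0.76 (SE 0.33, adjusted p = 0.0734), and mt-Nd4l stood at -0.75 (SE 0.35), mt-Nd4 at -0.62 (SE 0.32) and mt-Nd5 at -0.53 (SE 0.36). The remaining genes were mt-Nd3 at -0.20, mt-Nd6 at -0.03, mt-Co2 at -0.12, mt-Co3 at 0.15, mt-Atp6 at -0.01 and mt-Atp8 at -0.31, with SEs of 0.28 to 0.44. All of these genes showed the split of saline libraries except mt-Atp8, which had 3 to 16 reads per library. Leaving out saline 1 and 3 together turned the median of the 13 to 0.31 with none called. The 81 nuclear genes then gave 64 that rose and 3 that fell, against 28.4% and 21.6% of all genes.

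The FPKM of the mitochondrial-encoded genes as deposited fell into a high and a low set, shown in the plot of saline levels. mt-Co1, mt-Cytb, mt-Nd1, mt-Nd2, mt-Nd4, mt-Nd5 and mt-Nd6 had saline means from 4444 down to 482 FPKM, and mt-Co2, mt-Nd3, mt-Atp6, mt-Co3, mt-Nd4l and mt-Atp8 from 66.2 down to 2.76 FPKM, an order that the copies described next make uncertain. On chromosome 1, between bases 24611535 and 24616197, the annotation holds a run of unprocessed pseudogenes that copy part of the mitochondrial genome. Compared by sequence, 5 genes of the low set, mt-Co2, mt-Nd3, mt-Atp6, mt-Co3 and mt-Nd4l, were matched there over 99.0% to 99.9% of their length at 99.7% to 100% identity. mt-Nd4 was matched over 63.6% and mt-Co1 over 31.3% of their length, and the others by no annotated copy of at least 100 bases at 98% identity.

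**Figure D4:**
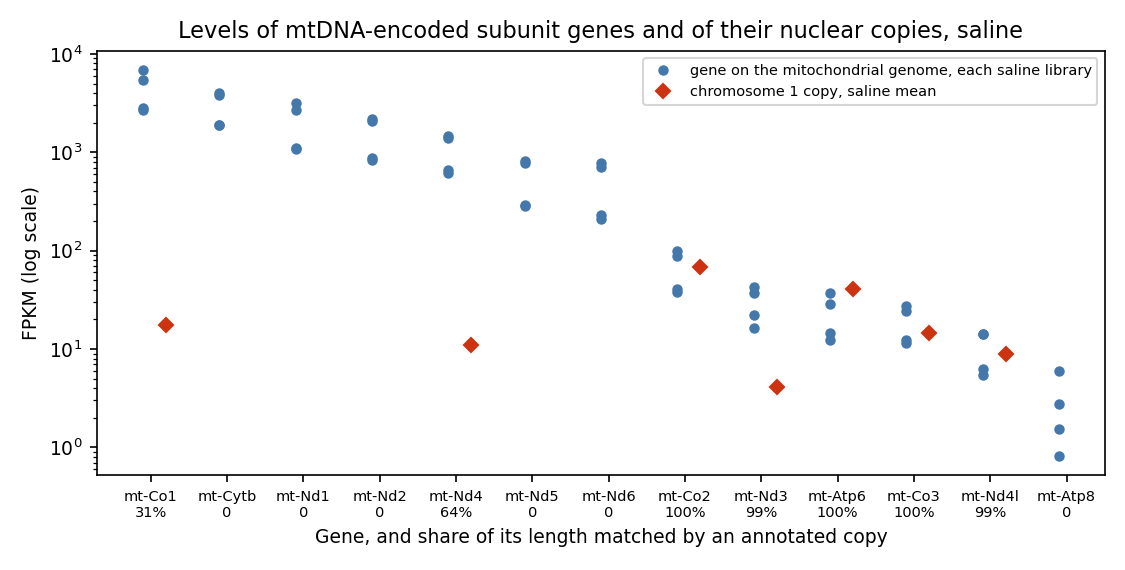
FPKM (log axis) of the 13 mitochondrial-encoded genes in the 4 saline libraries (blue) and the saline mean of the chromosome 1 copy (red), with the share of each gene matched by a copy under its name. The 5 genes matched nearly whole lie under 100 FPKM, with copies from 4.14 FPKM (mt-Nd3, itself at 29.5) to 67.7 FPKM (mt-Co2, itself at 66.2), and saline 1 and 3 form the upper pair of points for all genes but mt-Atp8.

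The copies also carried reads. Gm28661, the copy of mt-Co2, had a saline mean of 67.7 FPKM against 66.2 FPKM for mt-Co2, and Gm10925, the copy of mt-Atp6, had 40.6 FPKM against 23.2 FPKM. The copies of mt-Co3 and mt-Nd4l had 14.5 and 8.86 FPKM against 18.9 and 10.0 FPKM. The copy of mt-Nd3 was much lower than its gene, at 4.14 FPKM against 29.5 FPKM. Reads that match both places cannot be told apart by sequence, and how the authors treated them is not given in the sources used here, so the levels of these 5 genes, and their place under the others, are uncertain. The starts of mt-Nd3 and of its copy Gm28438, from the GENCODE M21 transcripts, show how close the sequences are. Their 345 aligned bases differ at a single place, given in capitals and counted from the first base of each transcript (T3C, with the base of mt-Nd3 first).
mt-Nd3 (chrM:9459-9518, plus strand): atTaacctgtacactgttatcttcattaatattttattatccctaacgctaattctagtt
Gm28438 (chr1:24613060-24613119, minus strand): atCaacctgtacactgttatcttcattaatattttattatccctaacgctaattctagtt

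The nuclear genes were also grouped by copies and overlaps, where 29.5% of all genes rose and 23.7% fell. Of the 81 tested, 28 have a stretch of at least 100 bases at 98% identity or more in another annotated gene. Of these 28, 22 rose and none fell, with a median log2 fold change of 0.73. Cox5a, Ndufb9, Atp5g1, Cox4i1, Cox7a2l and Ndufs1 are among them, as is Ndufb2. Of the 36 that overlap another gene, 29 rose and 1 fell, with a median of 0.74. Of the 36 with neither such a copy nor an overlapping gene, 26 rose and 2 fell, with a median of 0.85. The part of copies and overlaps in these values was not tested.

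The second comparison asked whether endothelial deletion of Fgfr1 changed these genes in LPS-treated mice. Fgfr1 itself had 2.90, 2.91 and 2.60 FPKM in the loxP/loxP libraries and 0.682, 1.41 and 1.15 FPKM in the iΔEC/iΔEC libraries, with no overlap. Its log2 fold change was -0.88 (SE 0.16, adjusted p = 0.962). None of the 14945 genes tested passed (0%), with 661 at an unadjusted p under 0.05 (4.42%). With the replicate numbers as a block none passed the adjusted test either, and 1154 had an unadjusted p under 0.05 (7.72%). With 3 libraries a group, a gene that did not pass is not thereby shown to be at the same level.

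No nuclear subunit gene passed, and 1 of 81 had an unadjusted p under 0.05 by limma. Their FPKM summed to 4978, 5381 and 3871 in loxP/loxP and to 4901, 4700 and 4770 in iΔEC/iΔEC, so the iΔEC/iΔEC libraries lay within the loxP/loxP range. The median log2 fold change was 0.02, against 0.01 over every gene tested, and 50 of 81 were above 0, against 53.1%. This balance rested on single libraries and on the scaling: without loxP/loxP 3, the lowest of its group in 75 of the 81 genes, 12 were above 0 and the median was -0.11, without loxP/loxP 2 it was 71 and 0.12, and with scaling on the endothelial list none was above 0, while the middle gene of the table stood at -0.19. The groups did not overlap for 5 of the 81, against 10.1% of all genes. Sdha and Atp5mpl were higher in iΔEC/iΔEC (0.11 and 0.16, against 6.02% of all genes higher) and 3 genes were lower (4.09%).

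These 3 genes, which also had the smallest p of the nuclear subunit genes, encode complex IV isoforms or a relative. Cox6a2 had 1.90, 3.13 and 3.00 FPKM in loxP/loxP and 0.357, 0.347 and 1.08 FPKM in iΔEC/iΔEC. The groups were apart, and the log2 fold change was -1.22 (SE 0.23, adjusted p = 0.962). It overlaps Itgad on the chromosome. Cox7a1, the other muscle isoform, stood at -0.50 (SE 0.22, adjusted p = 0.962), from 0.990, 2.05 and 1.13 FPKM to 0.794, 0.882 and 0.344 FPKM. Cox7a2l stood at -0.30 (SE 0.14, adjusted p = 0.962), from 97.4, 93.2 and 84.4 FPKM to 80.3, 79.6 and 63.6 FPKM. The groups were apart for both.

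Cardiac muscle transcripts were sparse, and their groups overlapped, although between libraries of the same replicate number iΔEC/iΔEC was lower in every pair. The 8 markers summed to 10.7, 24.4 and 23.2 FPKM in loxP/loxP and 5.30, 15.98 and 9.08 FPKM in iΔEC/iΔEC, with Actc1 the most abundant. None of the 4 tested passed, all had values below 0, and their median log2 fold change was -0.74. No marker was under 3 reads in all loxP/loxP libraries, and Nppa had no read in any iΔEC/iΔEC library. The 5 skeletal muscle markers summed to 2.09, 2.15 and 1.56 FPKM in loxP/loxP and 7.56, 7.76 and 2.12 FPKM in iΔEC/iΔEC. Here iΔEC/iΔEC was higher in every pair, although 1 of its libraries lay within the loxP/loxP range. None of the 3 tested passed, all had values above 0, and their median log2 fold change was 0.31, with Mylpf the most abundant. The part of these transcripts in the values of Cox6a2 and Cox7a1 was not tested. The ratios of Cox6a2 to Cox6a1 and of Cox7a2l to Cox7a2 differed by -2.25 and -0.40 without overlap, each with an exact permutation p of 0.1 (two-sided, 0.3 adjusted over 6 ratios), the smallest that 3 against 3 libraries can give.

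The mitochondrial-encoded genes had log2 fold changes below 0 in all 13 cases, with a median of -0.68, and none passed (adjusted p = 0.962 for each by limma). mt-Co1 had 8869, 15615 and 5656 FPKM in loxP/loxP and 5840, 6074 and 4085 FPKM in iΔEC/iΔEC, at -0.81 (SE 0.57). loxP/loxP 2 was far above all others, while loxP/loxP 3 lay under iΔEC/iΔEC 1 and 2, so the groups overlapped. mt-Nd4 at -0.82 (SE 0.39) and mt-Nd2 at -0.71 (SE 0.36) were the only 2 of the 13 whose groups did not overlap, against 4.09% of all genes that were lower without overlap. mt-Nd4 had 1330, 2467 and 1074 FPKM against 1000, 990 and 650 FPKM. The smallest values were those of mt-Co2 and mt-Nd4l, -0.41 each (SE 0.35 and 0.33).

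**Figure D5:**
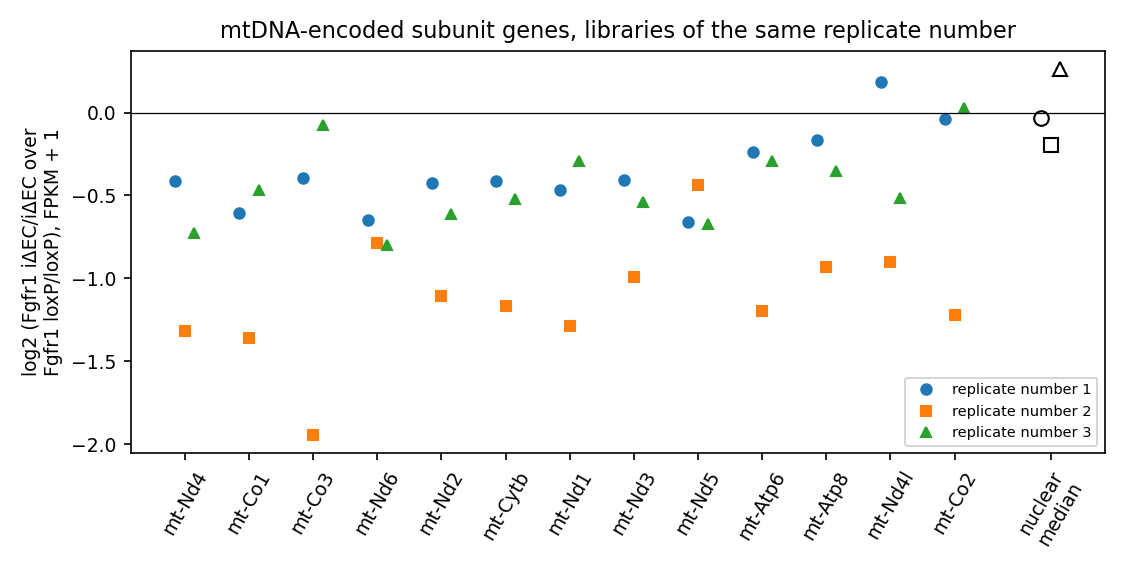
Log2 ratio (FPKM + 1) of the iΔEC/iΔEC to the loxP/loxP library of the same replicate number for each mitochondrial-encoded gene, and at the right the median over 81 nuclear subunit genes (open symbols). Most points lie under 0 and those of number 2 are mostly the lowest, while the nuclear medians are -0.03, -0.20 and 0.26.

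Between libraries of the same replicate number, 11 of the 13 genes were lower in iΔEC/iΔEC in all 3 pairs, against 12.9% of all genes tested, and none was higher in all 3 (18% of all genes). The exceptions were mt-Nd4l, higher in pair 1, and mt-Co2, slightly higher in pair 3. The median log2 ratios of the 13 were -0.41, -1.16 and -0.52 in pairs 1, 2 and 3. With the number as a block in limma 6 of the 13 had an unadjusted p under 0.05, against 7.72% of all genes in that fit, and none passed, the smallest adjusted p being 0.555. Within their groups all 13 genes were highest in loxP/loxP 2, and lowest in loxP/loxP 3 and in iΔEC/iΔEC 3. The 13 genes thus moved largely together by library, and counts among them, here and above, are not counts of separate observations. Without loxP/loxP 2 the median log2 fold change of the 13 was -0.37. mt-Rnr2, a ribosomal RNA of the mitochondrial genome, was likewise highest in loxP/loxP 2, at 1041 FPKM against 479 and 398 FPKM in the other two. The iΔEC/iΔEC libraries had 460, 563 and 329 FPKM.

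The lists of related genes gave no call in the second comparison. The 77 tested mitochondrial ribosome genes had a median log2 fold change of -0.01, the 17 genes of pyruvate dehydrogenase and the TCA cycle 0.07, the 48 assembly factors -0.01 and the 22 tested regulators -0.04 in iΔEC/iΔEC. Of the 10 endothelial markers 9 were above 0 (median 0.29). Every tested leukocyte marker (6, median -0.25), neutrophil marker (8, median -0.48), macrophage marker (8, median -0.12) and epithelial marker (10, median -0.69) was below 0, as were the 13 mitochondrial-encoded genes, and none of them passed. The sums of all 4 lists overlapped between the groups. Between libraries of the same replicate number, neutrophil and epithelial sums were lower in iΔEC/iΔEC in every pair. Leukocyte and macrophage sums were lower in pairs 1 and 3 and higher in pair 2. Endothelial sums were higher in every pair, at 2891, 2303 and 2399 FPKM against 3642, 2616 and 3336 FPKM. Mural sums were lower in every pair, at 74.9, 98.8 and 140 FPKM against 53.1, 84.9 and 83.2 FPKM. Leukocyte sums were 458, 605 and 543 FPKM in loxP/loxP against 308, 675 and 409 FPKM in iΔEC/iΔEC, with Coro1a the most abundant. Neutrophil sums were 1157, 2533 and 2571 against 743, 2423 and 1520 FPKM, with S100a9 the most abundant. Macrophage sums were 1350, 2105 and 3179 against 1001, 2204 and 2001 FPKM, with Lyz2 the most abundant, and epithelial sums 973, 1727 and 2969 against 496, 1142 and 899 FPKM, with Sftpc the most abundant. The part of these cells in the mitochondrial-encoded values was not tested.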

How the data were processed

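The authors aligned reads to GRCm38/mm10 with HISAT2 (2.0.5) and counted them on genes with featureCounts (1.5.0-p3). They deposited FPKM with the gene length, in one table per experiment. The annotation release, the strandedness and the handling of reads with several alignments are not given in the sources used here. FPKM times length gave whole reads (within 0.02) for 100.0% of the low values checked, which had 1 or more reads, and 11 symbols turned into dates in the second table were restored from the first. Library sizes were set by the median of gene ratios, which left the deposited FPKM almost as they were (factors 0.998 to 1.00). Genes whose mean reached 0.5 FPKM were compared as log2(FPKM + 1) with limma (3.58.1, R 4.3.3, intensity trend) and Benjamini-Hochberg adjustment over all of them. A fold change on this scale understates that of low genes. The tables were normalised apart and were not compared with each other.

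The fitting steps were tested on simulated data. Nothing in the labels says that libraries of a group came from separate mice, so p-values measure the spread between these libraries. In the second experiment deviations from the group mean correlated between libraries of the same number (0.248, 0.178 and 0.187), and the numbers were taken to pair them from this alone. Transcripts were compared with BLAST+ 2.17.0. Python 3.11.15, scipy 1.17.1 and matplotlib 3.10.9 were used. Members and lists were chosen with earlier results of these data known. The genes named were, per complex, the 2 largest rises and falls that passed without overlap, all mitochondrial-encoded genes, isoform pairs, the 3 highest and lowest levels, the 3 nuclear subunit genes with the smallest p in the second experiment and the 2 largest called changes of each list. Others were named after their values were seen, among them Ndufs1, Sdha, Sdhd, Uqcrc1, Uqcrc2, Atp5a1, Atp5b, Atp5s, Atp5g2, Atp5g3, Cyc1, Atpif1, Ndufab1, Nrf1, Tfam, Ppargc1a, Mterf3, Polg2 and Pdgfrb.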

Additional observations from a re-analysis of the deposited data

Results flagged for a closer look

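A single library lay far from the rest of its group in 2 of 80 group values examined, where chance would give about 4. For Atp5mpl this was saline 1 at 21.2 FPKM, while the remaining saline libraries read 15.9 to 16.4 FPKM. For Cox7a2l it was again saline 1, at 114 FPKM, with the rest at 90.3 to 92.9 FPKM. Saline 1 had the highest FPKM of its group in 53 of the 81 tested nuclear subunit genes.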

How the results depend on the processing

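In LPS over saline, 62 nuclear genes rose. The count was 52 to 67 with 1 library left out, 22 with a log2 fold change of at least 1, and 42 to 74 under the other alternatives. With 1 library left out 25.7% to 31.3% of all genes rose, and 11.9% at a log2 fold change of at least 1. The 42 came with quantile normalization, where 24% of all genes rose. The 74 came with scaling on the endothelial list, where 48.5% did. The 3 that fell became 2 to 4 with 1 library left out, against 19.5% to 25.4% of all genes. The number was 5 on scaling by total or nuclear reads, against 31.2% and 31.6% of all genes. It was 0 on the endothelial list, against 5.22%, and 1 with a log2 fold change of at least 1, against 6.79%. Of the 13 mitochondrial-encoded genes none passed. On the endothelial list 1 rose, against 48.5% of all genes. The number that fell was 1 with a filter at 5 FPKM, 4 on total reads, 4 on nuclear reads and 5 with quantile normalization. It was 4 with the length trend removed, 2 with limma-voom, and 0 to 1 with 1 library left out (1 without saline 2 or 4). Under these settings in turn 19.9%, 31.2%, 31.6%, 28.8%, 29.7%, 24.4% and 19.5% to 25.4% of all genes fell. The cause was not tested.

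The numbers of the saline and LPS libraries did not pair them (correlations 0.097, -0.162, -0.209 and -0.117). With the replicate block 48 nuclear genes rose, 3 fell, and 1 mitochondrial-encoded gene, mt-Nd4l, fell (adjusted p = 0.0467). In that fit 22.8% of all genes rose and 17.2% fell. In the second experiment the blocked fit changed no call.

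Log2 fold changes of LPS over saline turned sign as follows among the subunit genes named here. On the endothelial list they were 0.076 for Cox6a2, 0.24 for Cox7a1, 0.17 for Ndufb2, 0.054 for Atp5s, 0.69 for mt-Atp6, 0.15 for mt-Atp8, 0.66 for mt-Co1, 0.60 for mt-Co2, 0.030 for mt-Cytb, 0.63 for mt-Nd1, 0.50 for mt-Nd3, 0.11 for mt-Nd4, 0.20 for mt-Nd5 and 0.70 for mt-Nd6. Leaving out saline 1 and 3 together, chosen after seeing the data, gave 0.22 for Cox6a2, 0.12 for Cox7a1, 0.59 for mt-Atp6, 0.49 for mt-Co1, 0.48 for mt-Co2, 0.59 for mt-Nd1, 0.31 for mt-Nd3, 0.18 for mt-Nd5 and 0.84 for mt-Nd6. With quantile normalization they were -0.26 for Sdha, -0.24 for Ndufb11, -0.047 for Atp5j and -0.014 for Ndufv1. Cox7a2l was -0.0076 on nuclear reads, -0.42 with quantile normalization and -0.15 with the length trend removed. mt-Co3 was -0.037 on total reads, -0.045 on nuclear reads, -0.14 with quantile normalization and -0.13 with the length trend removed, and mt-Atp6 was 0.052 with limma-voom. With 1 library left out the ranges were -0.25 to 0.26 for mt-Atp6, -0.60 to 0.043 for mt-Atp8, -0.27 to 0.18 for mt-Co1, -0.34 to 0.11 for mt-Co2, -0.038 to 0.36 for mt-Co3, -0.34 to 0.17 for mt-Nd1 and -0.34 to 0.28 for mt-Nd6. Of the other genes named, those that turned sign on the endothelial list were Cldn5 (0.23), Pecam1 (0.56), Rgs5 (0.14), Cspg4 (0.13), Myh11 (0.094), Tagln (0.011), Mterf3 (0.35), Polg2 (0.11) and Tfam (0.61). Cspg4 was 0.062 with the length trend removed, and Cldn5 and Pecam1 were 0.0033 and 0.018 without saline 1 and 3. Nrf1 was -0.14 on total reads, -0.15 on nuclear reads, -0.0077 with quantile normalization and -0.030 without saline 1 and 3, and Tfam was 0.031 with the replicate block. With 1 library left out Nrf1 ranged from -0.023 to 0.058 and Tfam from -0.052 to 0.019. In the second experiment Sdha and Atp5mpl were -0.14 and -0.087 on the endothelial list, the Cox4i2 over Cox4i1 ratio ranged from -0.60 to 0.24 and Cox6b2 over Cox6b1 from -0.24 to 0.47. With 3 against 3 libraries these ratios cannot reach an exact p under 0.1.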
